A study of Mus musculus with 6 samples.

Results

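The 9 genes described here, Mlkl, Ripk1, Ripk3, Gsdmd, Casp1, Casp4, Casp8, Casp9 and Apaf1, encode kinases, proteases and pore-forming proteins of regulated cell death. They were taken by gene symbol from a deposited table of 45777 genes, and all 9 were found there once. The libraries came from cultures of dorsal root ganglion (DRG) neurons, the sensory neurons beside the spinal cord, prepared from female C57BL/6 mice aged 8 weeks, with the substrain not named. Of 6 libraries, 3 were from cultures that received 100 ng/ml recombinant oncomodulin (ONCM), a calcium-binding protein of the parvalbumin family, over 12 hours, and 3 were from cultures given PBS, its vehicle control. The labels carry no genetic alteration in either group. Sample titles call the 3 libraries of each group biological replicates. The labels do not say whether animals were pooled or whether the 3 replicates came from separate cultures. P-values therefore measure the spread between these libraries, which may be technical.

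Necroptosis runs from death receptors through the kinases RIPK1 and RIPK3 to MLKL, which RIPK3 phosphorylates and which then breaches the plasma membrane, while caspase-8 cleaves the kinases and holds this route in check. Pyroptosis is carried out by gasdermin D, the Gsdmd product, whose cut fragment forms membrane pores after cleavage by caspase-1, the protease of inflammasomes, or by the product of mouse Casp4, known as caspase-11, which senses bacterial lipopolysaccharide in the cytosol. The mitochondrial route of apoptosis uses Apaf1, which binds released cytochrome c and assembles the apoptosome on which caspase-9 is activated, and in neurons it carries much of the cell death of development. All of these proteins are switched on after translation, so transcript levels give the amount of message and not the activity of a route.

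Before the results, the libraries went against their labels in 1 respect. Every sample is labelled female, yet Xist, the RNA of the inactive X chromosome, stood at 413 to 513 CPM (counts scaled to the size of the library, with factors from the trimmed mean of M-values, TMM) with ONCM and at 0.484 to 0.587 CPM with PBS, and Ddx3y of chromosome Y stood at 15.1 to 16.9 CPM with ONCM and at 58.1 to 62.4 CPM with PBS. No library of either group had values within the other group's range, so no comparison could be made without the affected libraries. Treatment and any difference in sex or source of the cells cannot be told apart for any gene below. Library totals were 53770820 to 64477014 counts. Markers of the labelled cell type were present, with 12 neuron markers summing to 20400 to 21600 CPM with ONCM and 22600 to 23500 CPM with PBS. A macrophage marker list summed to 206 to 214 CPM with ONCM and 63.6 to 69.2 CPM with PBS. Of its 18 genes 17 rose, against 23.9% of all genes tested. Counts were not separated by cell type, and in such bulk samples fewer cells of a type and less RNA per cell cannot be told apart.

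The upstream DNA of 4 of the raised genes is shown because they entered the comparison from different routes and include the tandem neighbours Casp1 and Casp4. RefSeq start sites of assembly GRCm38.p6, the assembly also called mm10, gave 10 windows of 250 bases before a start for 8 of the 9 genes, and 5 of these windows, from 5 genes, lie wholly outside the gene's own RefSeq span. The sequences run 5′ to 3′ on the strand of the gene, and capitals mark a match to the NF-kB consensus. The Casp4 window is chr9:5308599-5308848 (plus strand), the Casp1 window chr9:5298267-5298516 (plus strand), the Ripk3 window chr14:55788858-55789107 (minus strand) and the Casp9 window chr4:141793362-141793611 (plus strand).
Casp4: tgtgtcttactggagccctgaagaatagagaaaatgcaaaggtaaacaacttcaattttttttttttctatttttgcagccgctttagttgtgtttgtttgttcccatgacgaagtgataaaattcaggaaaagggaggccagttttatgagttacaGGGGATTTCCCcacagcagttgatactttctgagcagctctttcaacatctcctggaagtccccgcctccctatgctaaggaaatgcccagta
Casp1: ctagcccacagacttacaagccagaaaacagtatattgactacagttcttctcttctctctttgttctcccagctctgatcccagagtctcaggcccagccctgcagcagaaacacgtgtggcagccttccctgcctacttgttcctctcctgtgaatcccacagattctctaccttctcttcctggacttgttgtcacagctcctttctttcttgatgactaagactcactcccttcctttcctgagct
Ripk3: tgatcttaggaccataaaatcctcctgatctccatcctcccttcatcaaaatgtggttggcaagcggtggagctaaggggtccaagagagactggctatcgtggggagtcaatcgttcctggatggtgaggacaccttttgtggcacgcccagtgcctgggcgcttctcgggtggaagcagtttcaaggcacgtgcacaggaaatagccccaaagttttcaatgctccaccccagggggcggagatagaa
Casp9: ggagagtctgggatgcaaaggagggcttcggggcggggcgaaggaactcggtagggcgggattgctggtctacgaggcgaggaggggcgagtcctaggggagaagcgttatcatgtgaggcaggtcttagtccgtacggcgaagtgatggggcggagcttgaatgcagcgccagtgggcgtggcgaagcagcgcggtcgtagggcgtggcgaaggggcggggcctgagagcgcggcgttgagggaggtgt

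4 motifs were searched on both strands of all 10 windows. They were the STAT-type GAS element TTCNNNGAA, the interferon-response core (GAAA, any 2 bases, GAAA), the NF-kB consensus by its usual name, and TATAAA. The NF-kB consensus matched both overlapping Casp4 windows at a single place, where overlapping matches span 93 to 83 bases before the upstream start, and it occurs in 3.90% of all 32851 windows of the same length. The GAS element matched a Ripk1 window further into the gene at 2 places, 108 to 100 and 11 to 3 bases before that start. Each place reads TTCCCGGAA on the strand of the gene. The element TTCNNNGAA reads the same on both strands, so each place matches it on both. It occurs in 7.02% of all windows. The interferon-response core, present in 2.98% of all windows, and TATAAA, present in 12.4%, matched none of the 10. GC content differed among the windows shown, from 41.6% for Casp4 and 49.2% for Casp1 to 54% for Ripk3 and 66% for Casp9, against a median of 52.4% over all windows. These are letter matches only.

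The comparison asked which of the 9 transcripts differ between ONCM and PBS cultures. All 9 passed the filter on low counts, and 8 rose while Ripk1 did not pass the test, by edgeR's quasi-likelihood test at an adjusted p under 0.05 over all 20354 genes tested. None fell. Over all genes tested, 48.3% passed, as 23.9% rose and 24.4% fell. The median log2 fold change was 0.55 over the 9 genes and -0.002 over all genes tested. The rises ran from 1.20-fold for Casp9 to 3.01-fold for Gsdmd. The same 8 genes had no overlap in CPM between the groups, against 27.6% of all genes with every ONCM library above every PBS library and 28% with every one below. The macrophage marker sum was 3.13 times the PBS mean in ONCM libraries, and its part in these rises was not tested.

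**Figure D1:**
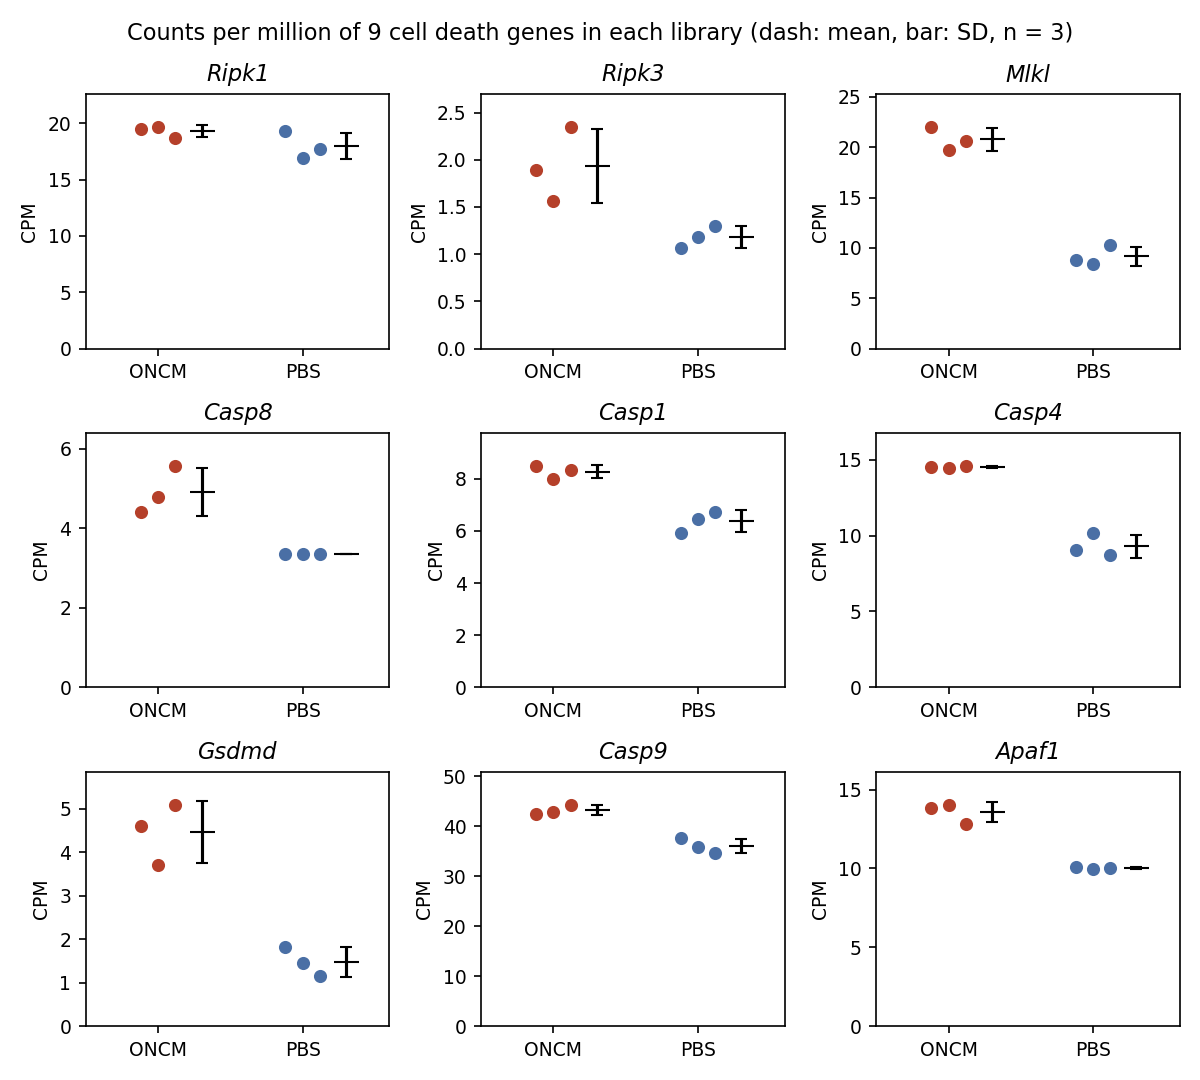
CPM of the 9 genes (vertical axes, each from 0) in each of the 3 ONCM and 3 PBS libraries (horizontal axis, points), with the mean as a dash and the SD as a bar. The points of the groups are apart for all genes but Ripk1, and Gsdmd and Mlkl show the widest separation.

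Among the necroptosis genes, Mlkl, the membrane-breaching effector (chromosome 8, 111311255 to 111338479, minus strand), moved most. It stood at 22, 19.7 and 20.6 CPM in the ONCM libraries, against 8.84, 8.36 and 10.3 CPM in the PBS libraries. Each ONCM library was therefore well above the highest PBS library, and the gene was counted at least 1153 times in every ONCM library. Mlkl rose 2.27-fold, a log2 fold change of 1.18 (SE 0.07, adjusted p = 2.48e-10). Its log2 fold change ranked at the 94.8th percentile over all genes tested, in an order by sign in which falls rank below rises.

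Ripk3, the kinase that acts on MLKL (chromosome 14, 55784995 to 55788857, minus strand), had the fewest summed counts of the 9 in both groups. It had 1.90, 1.56 and 2.35 CPM with ONCM, against 1.07, 1.18 and 1.30 CPM with PBS. The groups were apart, but the gap between ONCM replicate 2 and PBS replicate 3 was small, and only 94 to 131 reads with ONCM and 66 to 75 with PBS were counted. Ripk3 rose 1.64-fold (log2 fold change 0.71, SE 0.18, adjusted p = 0.00333). The spread between ONCM libraries, 20.2% of their mean, was wider than the 9.58% that counting alone gives. Between PBS libraries it was 9.73%, against 12% from counting.

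Ripk1, the kinase scaffold at the head of the route (chromosome 13, 34002225 to 34035170, plus strand), did not pass. Its values were 19.5, 19.6 and 18.7 CPM with ONCM, against 19.3, 17.0 and 17.7 CPM with PBS. PBS replicate 1 lay within the ONCM range, so the groups overlapped. The log2 fold change was 0.10 (95% interval -0.03 to 0.22, adjusted p = 0.188), an interval that does not reach the estimate of any gene that rose. Gene models overlap here, and 9.01% of the exonic bases of Ripk1 are shared with Gm17084 or lie opposite Serpinb6a.

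Casp8, the protease that restrains necroptosis and starts receptor-driven apoptosis (chromosome 1, 58795233 to 58847503, plus strand), had 4.40, 4.78 and 5.57 CPM with ONCM, against 3.35, 3.36 and 3.36 CPM with PBS. All ONCM values were above all PBS values, and they were more dispersed. Casp8 rose 1.47-fold (log2 fold change 0.55, SE 0.11, adjusted p = 4.92e-04). The PBS libraries differed by 0.0703% of their mean, far less than the 7.08% that counting error gives, so their closeness is no measure of precision. A share of 4.37% of the 50-base windows of Casp8 transcripts also occurs in Gm20257.

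Of the pyroptosis genes, Gsdmd, the pore former (chromosome 15, 75862144 to 75867408, plus strand), had the largest fold of the 9. It stood at 4.61, 3.70 and 5.08 CPM with ONCM, against 1.82, 1.45 and 1.14 CPM with PBS. The lowest ONCM library was above the highest PBS library by a wide margin, although libraries varied within both groups, by 15.8% with ONCM and 23.3% with PBS. Gsdmd rose 3.01-fold (log2 fold change 1.59, SE 0.16, adjusted p = 1.98e-07), at the 97th percentile of all genes tested. Counts were low, at 222 to 284 with ONCM and 66 to 118 with PBS. When single libraries were left out, the estimate was lowest without PBS replicate 3, at 2.70-fold, and highest without PBS replicate 1, at 3.43-fold. On the log2(TPM + 1) scale it was lower still, at 2.38-fold.

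Casp4, the lipopolysaccharide-sensing caspase (chromosome 9, 5308849 to 5336791, plus strand), had 14.5, 14.4 and 14.6 CPM with ONCM, against 9.06, 10.2 and 8.70 CPM with PBS. The ONCM libraries were nearly equal and all above the PBS libraries. They differed by 0.543% of their mean, less than the 3.49% that counting error gives, so their closeness is no measure of precision. Casp4 rose 1.56-fold (log2 fold change 0.64, SE 0.07, adjusted p = 4.68e-07). Casp1, its neighbour and the protease that also matures interleukin 1 beta (chromosome 9, 5298517 to 5307281, plus strand), had 8.49, 7.99 and 8.32 CPM with ONCM, against 5.92, 6.47 and 6.75 CPM with PBS. These groups were apart too, by less. Casp1 rose 1.30-fold (log2 fold change 0.38, SE 0.08, adjusted p = 0.00101). No 50-base window of the transcripts of either gene occurs in the transcripts of another gene, so reads of at least that length can tell the tandem pair apart.

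Both apoptosome genes rose, by small folds. Apaf1, the scaffold (chromosome 10, 90989311 to 91082743, minus strand), had 13.9, 14 and 12.8 CPM with ONCM, against 10.1, 9.97 and 10 CPM with PBS. It rose 1.36-fold (log2 fold change 0.44, SE 0.07, adjusted p = 2.25e-05). The groups did not overlap. The PBS libraries differed by 0.573% of their mean, less than the 4.1% that counting error gives, so their closeness is no measure of precision. Casp9, the initiator caspase that Apaf1 activates (chromosome 4, 141793612 to 141815978, plus strand), had 42.4, 42.9 and 44.3 CPM with ONCM, against 37.5, 35.9 and 34.6 CPM with PBS. The groups were again apart. Casp9 rose 1.20-fold (log2 fold change 0.26, SE 0.04, adjusted p = 6.52e-05), the smallest change to pass among the 9, and 94 of its 5197 exonic bases lie opposite other genes.

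Levels of different genes were compared on the deposited TPM scale, which divides by transcript length. With ONCM, Casp9 averaged 26.9 ± 0.32 TPM and Casp4 26.4 ± 0.143 TPM (SD, n = 3), ranges that just failed to overlap. The Casp4 values lay closer together than counting error alone gives, so this gap does not order the pair. Mlkl followed at 22.8 ± 1.5 TPM, then Casp1 at 13.3 ± 0.367 TPM and Ripk1 at 9.62 ± 0.415 TPM. Gsdmd, Apaf1 and Casp8 came next at 6.03, 5.05 and 4.76 TPM, and each of these overlapped its neighbour in the order, while Ripk3 was lowest at 2.47 ± 0.462 TPM. With PBS, Casp9 led at 23.4 ± 1.13 TPM, ahead of Casp4 at 17.3 ± 1.45 TPM. Casp1, Mlkl and Ripk1 then lay together at 10.7, 10.5 and 9.34 TPM, each overlapping the next. Apaf1 stood at 3.89 ± 0.0471 TPM and Casp8 at 3.38 ± 0.0745 TPM, and Gsdmd and Ripk3, at 1.97 and 1.57 TPM, overlapped at the bottom. By the mean, Gsdmd was above Apaf1 with ONCM, but their ranges overlapped. In ONCM replicate 2 Gsdmd was lower, at 5.07 TPM against 5.28 TPM. With PBS, Gsdmd was below Casp8 without overlap. Mlkl was above Casp1 with ONCM and overlapped it with PBS.

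**Figure D2:**
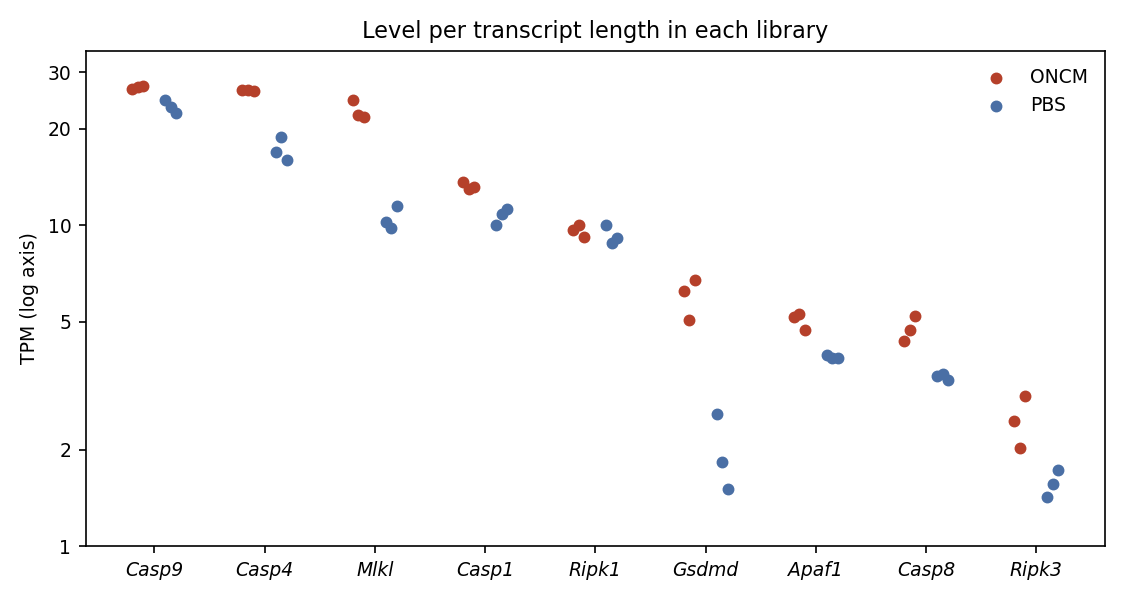
TPM of the 9 genes (vertical log axis) in each ONCM library (left point group of each gene) and PBS library (right point group), ordered by the ONCM mean (horizontal axis). Mlkl stands clear of Casp1 and Ripk1 with ONCM and lies among them with PBS.

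Ratios of TPM within a library described the balance of partner genes, and 8 ratios were tested by a two-sided exact permutation test on their log2 values, for which 3 libraries against 3 cannot give a p below 0.1. Mlkl over Ripk1 was 2.53, 2.21 and 2.38 with ONCM, against 1.02, 1.11 and 1.25 with PBS, and the groups were apart. Ripk3 over Ripk1 was 0.253, 0.202 and 0.321 with ONCM, against 0.141, 0.177 and 0.189 with PBS and was likewise without overlap. Mlkl over Ripk3 averaged 9.45 ± 1.82 with ONCM and 6.71 ± 0.473 with PBS (SD, n = 3), with ONCM replicate 3 at 7.42 close to the PBS maximum of 7.22. Casp8 over Ripk3 overlapped, at 1.77, 2.33 and 1.78 with ONCM and 2.39, 2.21 and 1.91 with PBS (exact p = 0.3).

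Gsdmd over Casp1 averaged 0.454 ± 0.0615 with ONCM and 0.187 ± 0.0639 with PBS (SD, n = 3). Gsdmd over Casp4 averaged 0.229 ± 0.0341 with ONCM and 0.115 ± 0.0327 with PBS, and neither ratio overlapped between the groups. Casp4 over Casp1 was 1.93, 2.04 and 1.99 with ONCM, against 1.70, 1.74 and 1.42 with PBS. Apaf1 over Casp9 was 0.195, 0.195 and 0.173 with ONCM, against 0.160, 0.165 and 0.172 with PBS, a gap of almost nothing between ONCM replicate 3 and PBS replicate 3. For the 7 ratios without overlap the exact p was 0.1, the smallest the design allows, and 0.114 after Benjamini-Hochberg adjustment over the 8.

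Other genes of these routes were read from lists chosen with earlier results of these data known. The background over all genes tested was 23.9% raised and 24.4% lowered. Among further caspases, Casp12, Casp6 and Casp2 rose by 0.40, 0.33 and 0.28 on the log2 scale. Casp12 takes part in the response to stress of the endoplasmic reticulum in mice. These 3 were named after their values were seen, and the Casp6 and Casp2 calls were lost without PBS replicate 2 (adjusted p = 0.0595 and 0.0504), that of Casp6 also without ONCM replicate 3 (0.0832) and that of Casp2 also on the log2(TPM + 1) and log2(TPM + 0.1) scales (0.0519 and 0.055). Casp14 had 4 reads in 1 ONCM library and none elsewhere and was not tested.

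The list of gasdermins other than Gsdmd, together with Ninj1, had 1 gene raised, 1 lowered and 4 not passing of 6 tested, and a median log2 fold change of -0.004. Gsdma, a gasdermin known from skin and gut, had 2.51, 3.13 and 3.08 CPM with ONCM, against 1.07, 0.840 and 0.813 CPM with PBS. It rose 3.19-fold (log2 fold change 1.67, SE 0.17, adjusted p = 1.36e-07), a rise close in size to that of Gsdmd, although 8.26% of its 50-base windows also occur in Gsdma2 or Gsdma3. Gsdme, another pore-forming gasdermin, fell to 8.31 ± 0.212 CPM with ONCM, against 11.2 ± 1.04 CPM with PBS (SD, n = 3), a log2 fold change of -0.43. Ninj1, which ruptures the membrane of dying cells, stood at 28.9 CPM with ONCM and 28.2 CPM with PBS and did not pass (adjusted p = 0.644). Gsdme and Ninj1 were named after their values were seen.

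Inflammasome sensors, adaptors and the cytokine substrates of caspase-1 went both ways, with 3 raised, 3 lowered and 6 not passing of 12 tested, and a median of 0.14. Aim2, a sensor of cytosolic DNA, had 1.41, 1.02 and 1.02 CPM with ONCM, against 3.77, 2.81 and 3.29 CPM with PBS, the reverse of the direction of Casp1 and Gsdmd. It fell by 1.52 on the log2 scale (SE 0.17, adjusted p = 4.72e-07), which put it at the 0.516th percentile of all genes tested. Naip2, a sensor of bacterial secretion systems, stood at 1.45 ± 0.121 CPM with ONCM and 0.574 ± 0.127 CPM with PBS (SD, n = 3) and rose 2.53-fold, but 19.1% of its 50-base windows occur in other Naip genes. On the log2(TPM + 1) scale that rise was 1.32-fold. The adaptor gene Pycard was near the bottom of detection, at 0.324 CPM with ONCM and 0.259 CPM with PBS, and did not pass, nor did Il1b at 0.980 and 0.926 CPM in the same order.

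Among the others, named after their values were seen, Nlrp3, a sensor that responds to many kinds of cell damage, and Il18, a cytokine cut by caspase-1, rose by 0.38 and 0.42 on the log2 scale. The Nlrp3 call was lost on the log2(TPM + 1) and log2(TPM + 0.1) scales (adjusted p = 0.0503 and 0.0579). That of Il18 was lost without ONCM replicate 2, PBS replicate 1 or PBS replicate 3 (adjusted p = 0.0667, 0.0851 and 0.0682). Nek7, a kinase that binds NLRP3, fell to 215 ± 6.13 CPM with ONCM, against 296 ± 6.14 CPM with PBS (SD, n = 3). Naip1 had a log2 fold change of -0.33 (adjusted p = 0.045), and this call was lost in 9 of the 14 alternatives, with an adjusted p of up to 0.17. Of its 50-base windows, 31.5% occur in other Naip genes.

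Death receptor and necrosome signalling had 10 raised, 2 lowered and 7 not passing of 19 tested, with a median of 0.17. Zbp1, a nucleic acid sensor that can engage RIPK3 without RIPK1, had 57.8, 58.4 and 62.2 CPM with ONCM, against 19.2, 20 and 21 CPM with PBS. It rose 2.96-fold (log2 fold change 1.57, SE 0.05, adjusted p = 9.45e-15). Tnf, the cytokine that triggers the RIPK1 route, rose 2.10-fold to 7.63 ± 0.627 CPM with ONCM, against 3.63 ± 0.303 CPM with PBS (SD, n = 3). Tnfaip3, a ubiquitin editor that damps TNF signalling, rose 1.73-fold to 50.9 ± 1.07 CPM with ONCM, against 29.4 ± 0.339 CPM with PBS. The lowered genes, named after their values were seen, were Cyld, a deubiquitinase acting on RIPK1, with a log2 fold change of -0.43, and Sharpin, a subunit of the linear ubiquitin ligase, with -0.14. The Sharpin call was lost when any of ONCM replicates 1 and 2 or PBS replicates 2 and 3 was left out (adjusted p = 0.107, 0.0845, 0.0651 and 0.0502). Cflar and Fadd, which bind caspase-8, did not pass, at 135 and 4.24 CPM with ONCM and 130 and 3.98 CPM with PBS.

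Apoptosome partners and caspase inhibitors mostly did not pass, with 2 raised, 1 lowered and 6 not passing of 9 tested, and a median of 0.05. Dffa, the inhibitor and chaperone of the nuclease that cuts DNA in apoptosis, had 284, 284 and 295 CPM with ONCM, against 164, 164 and 156 CPM with PBS. It rose 1.78-fold (log2 fold change 0.83, SE 0.03, adjusted p = 1.98e-13), with 7.51% of its 50-base windows found in other genes. Dffb, the nuclease itself, stood at 2.46 CPM with ONCM and 2.47 CPM with PBS. Diablo, which relieves caspase inhibition, rose by 0.27 on the log2 scale, with 17.6% of its 50-base windows found in Gm49027. Cycs, the cytochrome c gene, did not pass at 139 CPM with ONCM and 134 CPM with PBS. Xiap, an inhibitor of caspase-9, had a log2 fold change of -0.11 (adjusted p = 0.0398), a call lost in 7 of the 14 alternatives, with an adjusted p of up to 0.17. Diablo and Xiap were named after their values were seen.

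**Figure D3:**
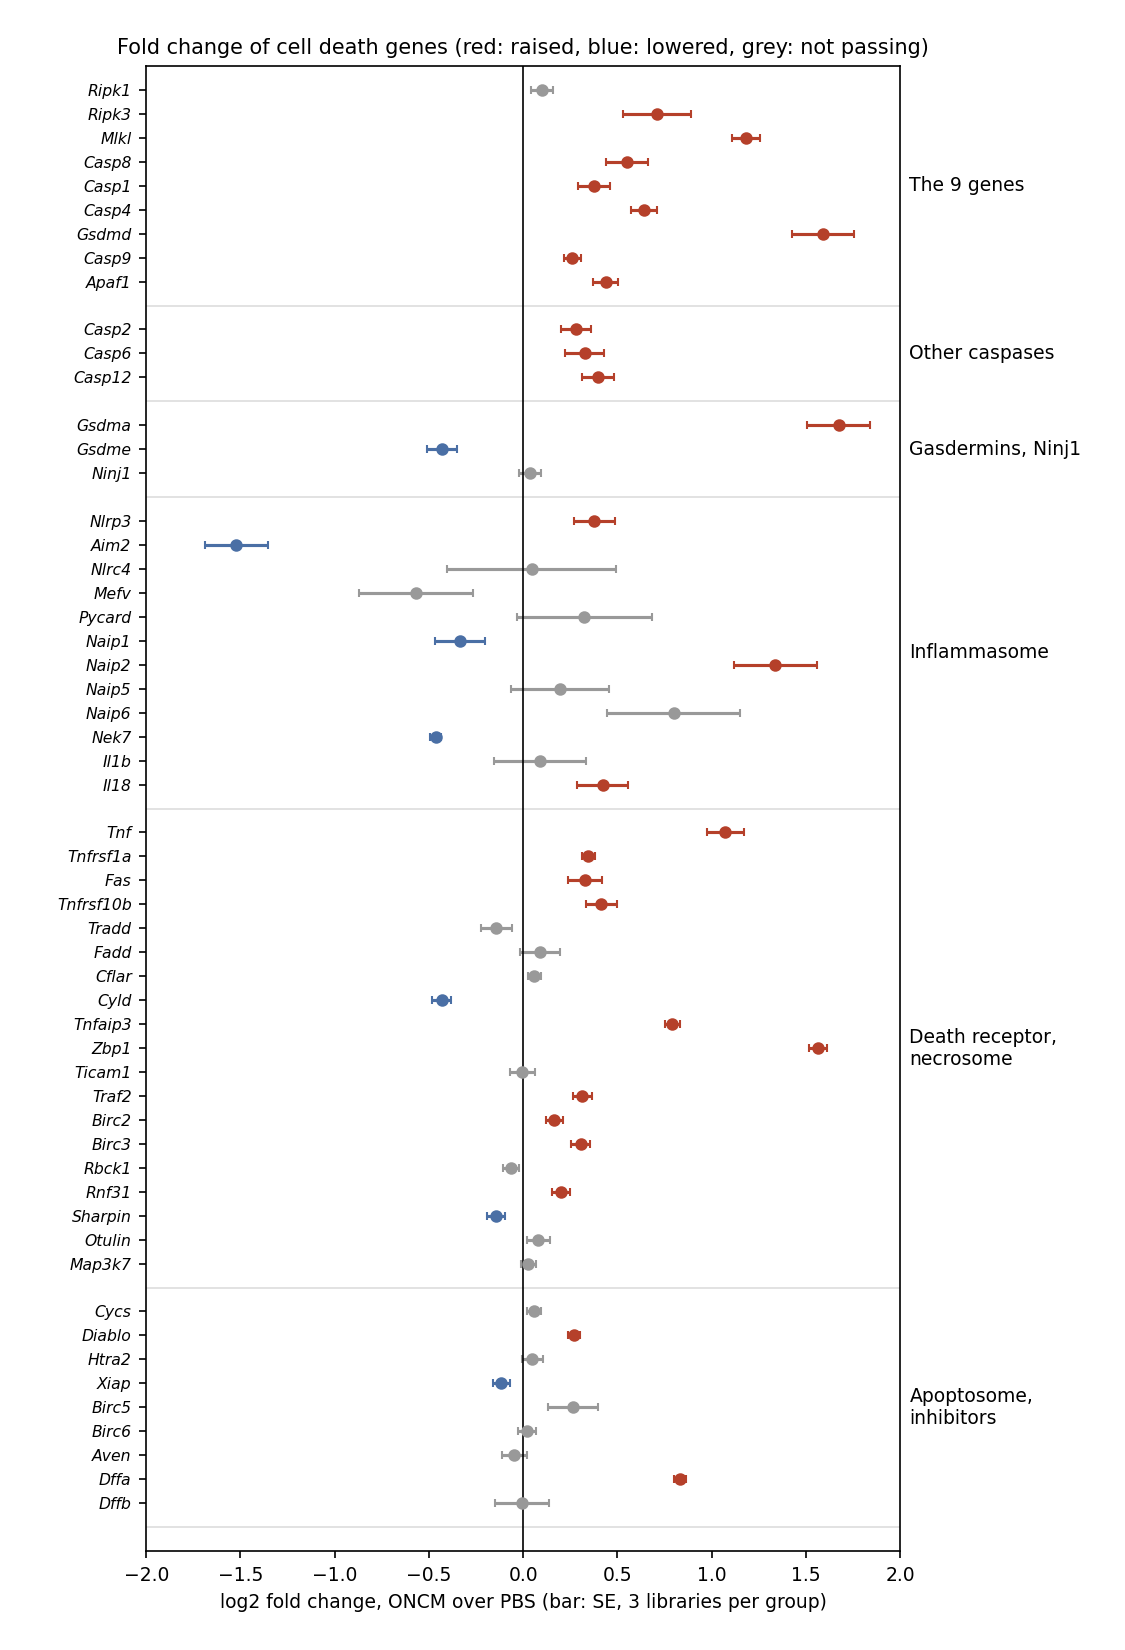
Log2 fold change of ONCM over PBS (horizontal axis) with its SE for the 9 genes and for other genes of their routes. Gsdmc2, Gsdmc3 and Gsdmc4, which did not pass, are not drawn. Red marks raised, blue lowered and grey not passing genes. Gsdma, Gsdmd and Zbp1 lie furthest right and Aim2 furthest left.

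Marker lists of other cell types differed between the groups beside these genes. The largest shift was in the macrophage list, at 3.07, 3.19 and 3.13 times the PBS mean in the ONCM libraries. None of its 18 genes was at 0 in all libraries, and Mpeg1, Ctss and Lyz2 stood at 44.5, 22.3 and 23.8 CPM with ONCM and 11.4, 4.38 and 8.33 CPM with PBS, while Cx3cr1 did not pass (adjusted p = 0.0591). On the same relative scale, the ONCM mean was 3.03 for Gsdmd, 2.27 for Mlkl, 1.64 for Ripk3 and 1.56 for Casp4, and 1.20 to 1.46 for Casp9, Casp1, Apaf1 and Casp8. Of 12 neuron markers, 8 fell, 2 rose and 2 did not pass, with a median log2 fold change of -0.43. The shares of all genes tested were 24.4% that fell and 23.9% that rose. Rbfox3, a neuronal splicing factor, stood at 113 CPM with ONCM and 180 CPM with PBS, and Tubb3, a neuronal tubulin, at 3620 and 2070 CPM in the same order. The neuron marker sum was 0.905 of the PBS mean and the Schwann cell marker sum 0.987. Macrophages are known to express Casp1, Casp4, Gsdmd and Ripk3, and the part of these cells, or of the lower neuron markers, in the rises was not tested.

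**Figure D4:**
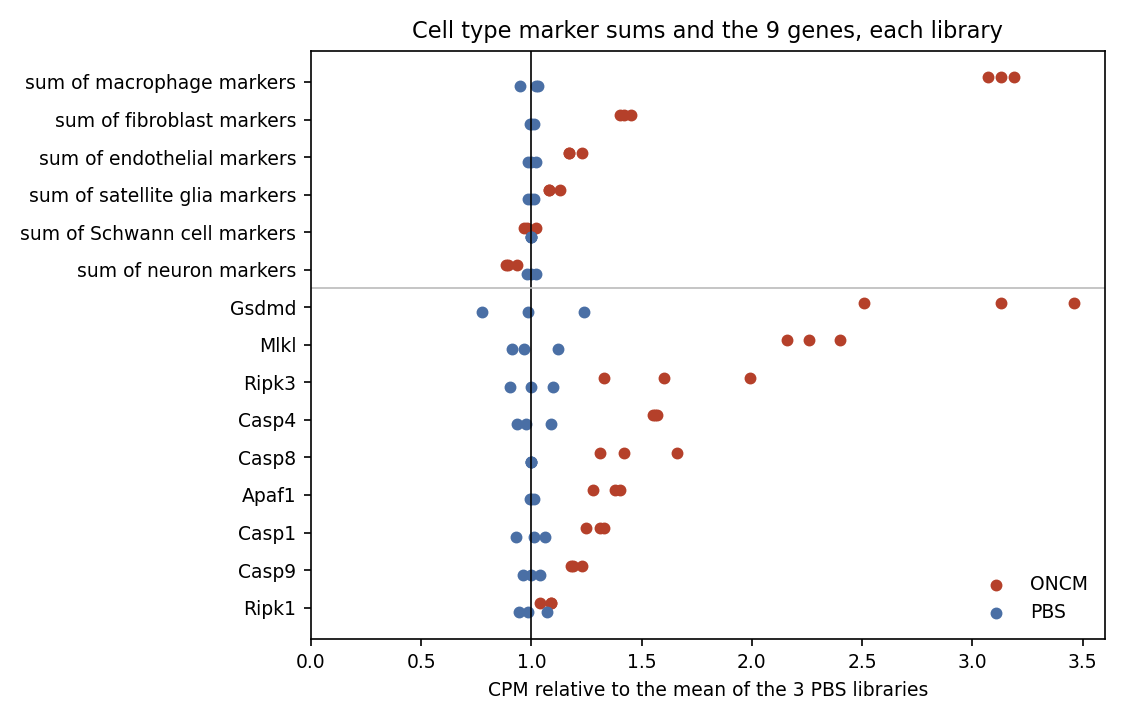
CPM relative to the PBS mean (horizontal axis) of summed marker lists (upper rows) and of the 9 genes (lower rows) in each ONCM and PBS library (points). The macrophage list is near 3 times the PBS mean in all ONCM libraries, Gsdmd spans 2.51 to 3.46, and Ripk1 stays near 1.

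Gsdmd had the largest change of the 9, and the genes nearest to it in profile, by Euclidean distance between centred log2 CPM over the 6 libraries among 15275 other genes with a mean of at least 1 CPM, were Wnt2b, AW112010 and Rgs1. Wnt2b stood at 19.3 CPM with ONCM and 6.92 CPM with PBS (r = 0.992 over the 6 libraries). AW112010 stood at 3.26 and 0.912 CPM and Rgs1 at 6.07 and 2.04 CPM in the same order, with r of 0.993 and 0.985. All of these points share the 2 groups, so the likeness is mainly that of the group difference.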

How the data were processed

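RNA was sequenced from 3 ONCM and 3 PBS libraries. The authors deposited raw read counts, FPKM and TPM per gene, per the file headers. Counts were used for the tests, the TPM values deposited by the authors for levels between genes and as an alternative, and the deposited FPKM values for nothing. The submitters' processing notes name build mm10. Not given in the sources used here: aligner, counter, annotation release and strand setting. Therefore reads of overlapping or antisense genes cannot be told apart. Columns were matched to samples by the codes shared with the labels.

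Counts were filtered with filterByExpr, scaled by TMM and compared in edgeR 4.0.16 (R 4.3.3) by the robust quasi-likelihood F-test with no covariate, all 6 libraries in the fit, and Benjamini-Hochberg adjustment over all tested genes. The SE is the log2 fold change over the square root of F. A gene passed at an adjusted p under 0.05, and "rose" and "fell" mark genes that passed. The fit was tested on simulated counts. Alternatives used DESeq2 1.42.0, other scalings and filters, limma 3.58.1 on log2(TPM + 1) and log2(TPM + 0.1), the replicate block, and each library left out.

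A count of 3 in a library corresponds to 0.0464 to 0.0558 CPM, and covers counting error only. Replicates of a group differed by a chi-square of 2.76 to 7.09 per degree of freedom over genes with at least 20 counts in a pair. The highest values, 7.09 and 6.6, were those of ONCM replicate 3 against ONCM replicates 1 and 2, which gave 3.1 between them. Libraries of different groups differed by 89.1 to 108, and all libraries were kept. Coordinates and promoters are from RefSeq (GRCm38.p6), strands, exon overlap and transcript windows from GENCODE M21. The 9 genes, the lists and the motifs were chosen with earlier results of these data known. The naming rule took all 9 genes, list genes that passed with a log2 fold change of at least 0.5 in size, marker genes, and the 3 nearest profiles to the gene with the largest change. Some genes of the lists are not reported here.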

Additional observations from a re-analysis of the deposited data

How the results depend on the processing

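Across 14 alternatives, 8 of the 9 genes rose and none fell in every case, and Ripk1 never passed, its log2 fold change running from 0.04 to 0.15 (adjusted p 0.0806 to 0.663). The lowest and highest log2 fold changes were 1.25 and 1.78 for Gsdmd, 1.05 and 1.26 for Mlkl, 0.43 and 0.85 for Ripk3, 0.59 and 0.70 for Casp4, 0.39 and 0.62 for Casp8, 0.31 and 0.48 for Apaf1, 0.29 and 0.41 for Casp1, and 0.19 and 0.29 for Casp9. The lowest for each of the 8 genes came on the log2(TPM + 1) scale, which understates changes of low genes. For Casp4 it was level with the fit without PBS replicate 3. On log2(TPM + 0.1), all of these genes but Gsdmd were also lower than on counts. Casp9, which had the highest TPM of the 9, stood at 0.20 there against 0.26 on counts. Mlkl stood at 1.11 against 1.18, Apaf1 at 0.37 against 0.44 and Casp1 at 0.31 against 0.38. The median over all genes tested was -0.043 on log2(TPM + 1) and -0.06 on log2(TPM + 0.1), against -0.002 on counts. Over all genes, 49.5% of calls were rises on counts and 39.2% on log2(TPM + 1), with 3631 raised and 5628 lowered there. The replicate block gave 4733 raised and 4864 lowered genes and left the calls of the 9 genes as they were. Same-numbered libraries did not deviate together, with correlations of -0.045, -0.012 and 0.002 over genes for numbers 1 to 3. Of the pathway list counts given, falls in death receptor signalling numbered 1 to 4, and falls among apoptosome partners 0 or 1. The ratios of the 9 genes kept their direction on CPM. Ripk3 and Gsdmd are limited by depth, with as few as 66 reads in a PBS library.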

Other observations

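Over all genes tested, 23.9% rose and 24.4% fell, and markers of other non-neuronal cells are given beside that background. Of 8 fibroblast markers 6 rose and 2, Col1a2 and Pdgfra, did not pass. Their sum was 500 to 520 CPM with ONCM and 356 to 360 CPM with PBS. Within it, Dcn alone stood at 254 CPM with ONCM and 144 CPM with PBS. Of 8 endothelial markers 5 rose and 3 did not pass, with sums of 208 to 219 CPM with ONCM and 176 to 181 CPM with PBS. Markers of leukocytes other than macrophages were scarce, with sums of 4.48 to 5.04 CPM with ONCM and 2.80 to 3.04 CPM with PBS. In that list Ly6g, a surface protein of neutrophils, stood at 1.88 CPM with ONCM and 0.136 CPM with PBS and rose, while the neutrophil genes S100a8 and S100a9 stood lower, at 0.295 and 0.483 CPM with ONCM and 0.487 and 0.742 CPM with PBS, and did not pass (adjusted p = 0.07 and 0.062). Of 8 satellite glia markers 3 rose and 5 did not pass, with a median log2 fold change of -0.02. Their sum was 2530 to 2640 CPM with ONCM and 2290 to 2360 CPM with PBS. Of 10 Schwann cell markers 4 rose, 2 fell and 4 did not pass, with a median of 0.01. Their sum was 4350 to 4570 CPM with ONCM and 4490 to 4510 CPM with PBS. Neither median stands far from the -0.002 over all genes tested, although the satellite glia sums did not overlap between the groups.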
